A study of Mus musculus with 76 samples.

Results

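The cells described here are the 19 iHPCs (haematopoietic progenitors made in vitro) with the least RNA of S phase genes, set against the 19 with the most. They were taken from 76 single mouse cells, all of 1 labelled group. The 19 cells highest in a score of 10 G2 and M phase genes were set aside, and the other 57 were ranked by a score of 14 S phase genes. A score was the mean of log2(TPM + 1) over its genes, where TPM is the share of all transcripts after scaling for gene length, per 1e+06. The lowest 19 are called low cells, the next 19 middle cells, the highest 19 S cells, and the 19 set aside G2/M cells.

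Per the labels, every cell came from pluripotent stem cells in which Runx1, Hoxa9 and Hoxa10 could be switched on. Low and S cells therefore share this source, and no cell from another source was among the 76. This does not show that each cell expressed the 3 genes. RNA at 1 TPM or more was found in 73 of 76 cells for Runx1, 18 for Hoxa9 and 28 for Hoxa10. Single cells were sorted, and Vazyme kits served to amplify cDNA from polyadenylated RNA (Discover-sc WTA Kit V2) and to prepare libraries (TruePrep DNA Library Prep Kit V2). No culture, clone or sort was named, so all 76 cells count as 1 sample. Hence no p-value is given, and every difference below describes these cells. The members were chosen by measured RNA levels, namely the genes of the 2 scores.

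A dividing cell passes from G1 into S phase, when DNA is copied, and then through G2 into M phase. Cyclin D and cyclin E kinases inactivate the retinoblastoma proteins, which frees E2F factors to switch on genes for DNA replication and nucleotide synthesis. Cells in early G1 or resting outside the cycle carry little RNA of these genes, and inhibitors such as p27 (Cdkn1b) keep the kinases in check. Blood progenitors include both cycling and resting cells.

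The 5 promoter sequences below show the letters through which E2F factors are known to bind at S phase genes. Capitals mark the octamers TTTCCCGC, TTTCGCGC, TTTGGCGC or TTTGCCGC on either strand; overlapping matches run together. Each sequence is the 250 bases before the start site, read 5′ to 3′ along the gene, from RefSeq on GRCm38.p6. Mcm6 and Mcm5 encode subunits of the replicative helicase and belong to the S score. The Mcm6, Mcm5, Cdca7 and Tfdp1 promoters were picked for holding an octamer: 2 of the 12 windows found for the 15 genes with the largest negative differences held one, and the windows of Pcna, Fen1, Slbp, Ung, Rfc5 and Ccne1 held none. Cdca7, a partner of the chromatin remodeller Hells, and Tfdp1, which encodes the E2F partner DP1, lie outside it and were much lower in low cells. Sqstm1, which encodes the autophagy receptor p62, was higher in low cells and has no such octamer in its window.
Mcm6, chr1:128359706-128359955, - strand: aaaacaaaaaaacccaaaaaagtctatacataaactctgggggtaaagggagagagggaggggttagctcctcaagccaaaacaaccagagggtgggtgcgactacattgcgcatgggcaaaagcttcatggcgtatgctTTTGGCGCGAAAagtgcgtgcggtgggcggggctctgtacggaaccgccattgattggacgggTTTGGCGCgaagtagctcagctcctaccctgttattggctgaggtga
Mcm5, chr8:75109259-75109508, + strand: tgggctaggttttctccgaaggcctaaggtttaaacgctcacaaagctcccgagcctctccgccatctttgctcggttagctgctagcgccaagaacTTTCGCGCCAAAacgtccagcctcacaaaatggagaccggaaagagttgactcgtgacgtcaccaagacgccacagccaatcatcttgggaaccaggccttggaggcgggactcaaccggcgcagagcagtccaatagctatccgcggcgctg
Cdca7, chr2:72475969-72476218, + strand: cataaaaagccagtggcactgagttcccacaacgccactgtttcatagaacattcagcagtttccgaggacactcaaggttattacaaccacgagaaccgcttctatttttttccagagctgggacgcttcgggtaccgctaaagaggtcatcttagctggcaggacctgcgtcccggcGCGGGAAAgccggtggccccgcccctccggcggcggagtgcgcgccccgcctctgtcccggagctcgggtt
Tfdp1, chr8:13338501-13338750, + strand: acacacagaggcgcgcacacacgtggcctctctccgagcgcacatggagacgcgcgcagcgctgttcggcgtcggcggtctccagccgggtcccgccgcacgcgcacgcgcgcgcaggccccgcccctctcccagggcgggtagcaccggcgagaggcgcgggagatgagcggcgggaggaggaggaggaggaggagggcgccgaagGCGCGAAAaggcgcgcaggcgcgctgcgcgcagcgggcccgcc
Sqstm1, chr11:50210821-50211070, - strand: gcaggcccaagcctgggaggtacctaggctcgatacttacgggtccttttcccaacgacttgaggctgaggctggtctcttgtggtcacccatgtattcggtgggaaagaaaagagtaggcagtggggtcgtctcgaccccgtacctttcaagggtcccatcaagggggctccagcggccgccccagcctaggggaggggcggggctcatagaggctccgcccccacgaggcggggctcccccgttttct

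Over windows that also take in 50 bases after the start, 5 of 12 S score genes with a RefSeq window held an octamer (41.7%). So did 13 of 41 windows of listed replication and repair genes outside the score (31.7%). Among genes outside the scores, 107 of 1469 windows held one where RNA was lower in low cells by at least 1 on the log2(TPM + 1) scale (7.28%). The share was 14 of 127 where it was lower by at least 3 (11.02%). It was 7 of 421 (1.66%) where RNA was higher in low cells by at least 1, against 263 of 5280 (4.98%) over all genes that passed the filter on low values and 626 of 27025 (2.32%) in the whole table. The pentamer CCAAT was found in 40.6% of the windows of the lower genes, 36.8% of those of the higher genes and 39.8% of all that passed. It was in 9 of 12 S score windows (75%) and 24 of 41 windows of listed replication and repair genes outside the score (58.5%). The hexamer TTTGAA, the core of the cell cycle homology region, was in 12.4% of the lower, 12.8% of the higher and 12.5% of all that passed. It was in 2 of 12 S score windows (16.7%) and 7 of the 41 (17.1%). Both motifs were searched on both strands, and a window was found for 80.4% of the lower, 80.8% of the higher and 80.6% of all genes that passed. A match is a description of the letters and not a measured site of binding.

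The S score chose the groups, so its values carry no result. It had its lowest, median and highest value at 1.05, 1.72 and 2.68 in low cells, 2.71, 4.11 and 5.37 in middle cells, and 5.39, 6.48 and 8.72 in S cells. The cells on either side of the limits were thus close, at 2.68 and 2.71 below and 5.37 and 5.39 above. The G2/M score was at most 2.71 in the 57 ranked cells and at least 2.96 in the 19 set aside, with medians of 0.88 in low cells and 1.84 in S cells.

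**Figure D1:**
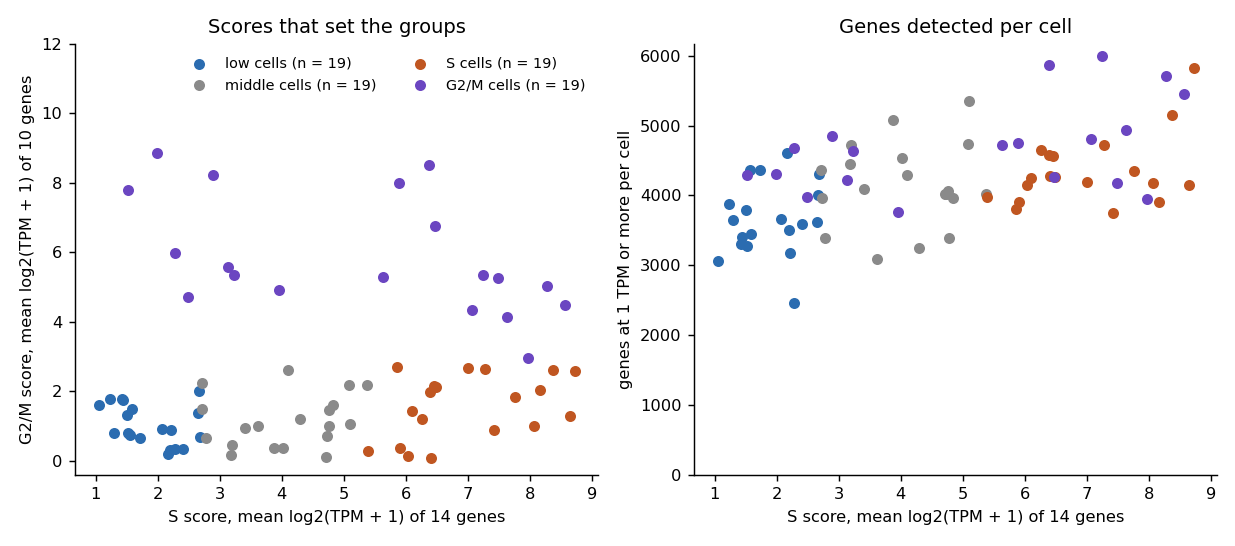
Each point is 1 of 76 cells, coloured by group. Left, the S score against the G2/M score, both means of log2(TPM + 1); right, the S score against the number of genes at 1 TPM or more, whose median was 3618 in low cells and 4246 in S cells.

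The 4 markers given for S cells are members of the score and are listed only to check the label. Pcna, the sliding clamp of DNA polymerases, had 0, 1.38 and 1160 TPM as lowest, median and highest value in low cells, against 141, 635 and 1610 TPM in S cells. Mcm6 had 0, 1.41 and 430 TPM in low cells, against 178, 589 and 1420 TPM in S cells. Fen1, the flap endonuclease, had 0, 0.962 and 223 TPM in low cells, against 107, 413 and 740 TPM in S cells. These 3 were in every S cell at over 100 TPM, and some low cells reached into that range. Slbp, which binds the stem loop of histone mRNA, had 1.03, 234 and 951 TPM in low cells, against 143, 607 and 1220 TPM in S cells, so it was detected in all cells of both groups. A low cell had 1 TPM or more for a median of 5 of the 14 score genes, and an S cell for 13.

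Low cells mostly had fewer genes detected in total. The number of genes at 1 TPM or more had its lowest, median and highest value at 2465, 3618 and 4609 in low cells, against 3750, 4246 and 5821 in S cells. Across the 57 cells it moved with the S score (Spearman rho 0.48, Pearson r 0.50, a description of cells of 1 sample). TPM keeps no sequencing depth, so less RNA in a cell, poorer capture and true absence of a transcript cannot be told apart. Values are therefore also given with the number of genes detected as a term in the fit, and its part in the results was not tested. Titles carry a number from 2 to 11 that has the form of a plate column. Numbers 2 to 6 held 7 low and 7 S cells, and numbers 7 to 11 held 12 of each. Numbers 10 and 11 alone held 8 low cells, 2 middle cells, 4 S cells and 1 G2/M cell. Of 137 named genes that differed by at least 1, 75 had differences over 1.5 times apart, or of opposite sign, between numbers 2 to 6 and 7 to 11. In 37 the difference was under 1 in one of these sets. For genes described below, such pairs are given with numbers 2 to 6 first.

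Of 6549 genes outside the scores that reached 1 TPM in at least 16 of the 76 cells, 1828 were lower in low cells by at least 1 in mean log2(TPM + 1), which is 27.9%. Another 521 were higher by at least 1, or 7.96%, so 35.9% were past 1 in either direction. A difference of 1 is a size and not a test. The median over all 6549 genes was -0.36, and 64.4% lay below 0, so every list below is read against that shift. Members of a list past 1 were counted only among those that passed the filter. Such counts stand against 27.9% lower and 7.96% higher over all genes. Over all genes, lower genes made up 77.8% of those past 1. With genes detected in the fit they made up 46.6%, with 1217 genes lower and 1392 higher, and the median was 0.03; 1068 of the lower and 470 of the higher genes were shared with the first count. No gene had ranges that did not overlap between low and S cells.

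Genes of DNA replication and repair outside the score were lower in low cells almost throughout. Of 52 listed, 40 were lower by at least 1 and 0 higher, 3 lay in between and 9 were below the filter. Their median difference was -2.44, against -0.36 over all genes, and -1.88 with genes detected in the fit. The list's summed TPM had its lowest, median and highest value at 538, 1904 and 2842 in low cells, against 2808, 5800 and 12254 in S cells. A gene that passed the filter only through its level in S cells had to differ, so these counts describe the list and test nothing.

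Tipin showed the widest gap among these genes. It encodes a partner of Timeless that protects stalled replication forks and lies on chromosome 9, 64281491 to 64305422 (mm10). It had 0, 2.02 and 531 TPM as lowest, median and highest value in low cells, against 79.0, 641 and 1403 TPM in S cells, a difference of -5.75. Mean log2(TPM + 1) was 3.06 ± 3.18 in low cells and 8.81 ± 1.19 in S cells (SD over n = 19 cells each). All 19 S cells were at 79.0 TPM or more and 5 low cells reached 10 TPM, so the ranges overlap through those few. The difference was -5.43 with genes detected in the fit.

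Ung encodes the glycosylase that removes uracil from DNA and lies on chromosome 5, 114130366 to 114139321. It reached 1 TPM in 2 of 19 low cells (10.5%, exact 95% interval 1.301 to 33.1%) and in 16 of 19 S cells (84.2%, 60.4 to 96.6%). Such intervals cover the counting of cells only. Its lowest, median and highest values were 0, 0 and 161 TPM in low cells, against 0, 165 and 634 TPM in S cells, a difference of -5.66. The Ung locus overlaps Alkbh2, and the strand used in counting is not given in the sources used here.

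Rfc5, a subunit of the clamp loader on chromosome 5, 117379145 to 117389023, had 0, 0.294 and 301 TPM in low cells, against 0, 165 and 649 TPM in S cells. It was detected in 3 low and 16 S cells, and the difference was -5.65. Prim1, the catalytic subunit of primase, had 0, 0 and 176 TPM in low cells, against 0, 183 and 693 TPM in S cells (-5.38). Both genes split the same way, with nearly all low cells at or near 0 and most S cells above 10 TPM. Pole3 (-5.27) and Pold2 (-5.19), subunits of the leading and lagging strand polymerases, and the histone chaperone Asf1b (-4.93) were among the 15 largest gaps too. Pold2 overlaps Aebp1 in the annotation, and its difference was -6.58 in title numbers 2 to 6 and -4.38 in 7 to 11. The 4 of those 15 that were in none of the lists were the nuclear pore gene Nup85 (-5.57), the noncoding Snhg4 (-5.37), which hosts a small nucleolar RNA, Tma16 (-4.86) and Abhd11 (-4.75), a mitochondrial hydrolase. Each of the 4 was detected in 2 to 7 low cells and in 16 to 18 S cells.

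**Figure D2:**
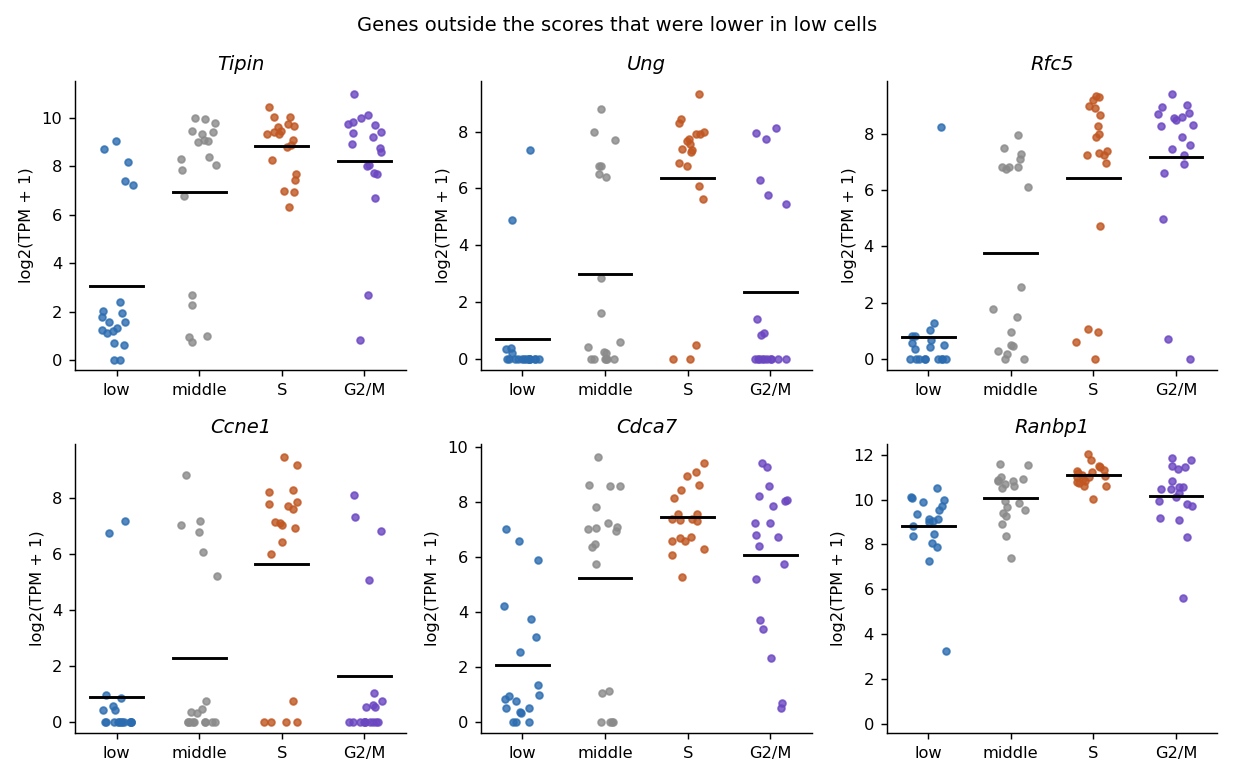
log2(TPM + 1) of 6 genes outside the scores in each cell of the low, middle, S and G2/M groups (n = 19 each); bars are means. Tipin, Ung, Rfc5, Ccne1 and Cdca7 lie near 0 in most low cells and high in most S cells, while Ranbp1 is present in every cell and shifts by -2.25.

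Enzymes that make nucleotides and one-carbon units were lower as well. Of 25 listed, 24 passed the filter, of which 20 were lower by at least 1 and 0 higher. The list's median was -2.62, and -1.52 with genes detected in the fit. Gart, which catalyses several steps of purine synthesis, had 0, 0.307 and 203 TPM in low cells, against 5.61, 157 and 467 TPM in S cells (-5.11). Gart was detected in 5 low cells and all 19 S cells. Shmt1, which feeds one-carbon units into thymidylate synthesis, had 0, 0.244 and 161 TPM in low cells, against 0, 147 and 553 TPM in S cells (-4.55). Ctps (-3.84) makes CTP and Umps (-3.62) makes UMP. Ctps was seen in 1 low and 11 S cells, and Umps in 10 low and 19 S cells. Between the sets of title numbers Ctps differed by -1.72 and -5.08, and Umps by -2.63 and -4.20.

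Among 25 regulators of the passage from G1 to S, 11 were lower in low cells by at least 1, 0 were higher and 8 were below the filter. The list's median was -1.75, and -1.03 with genes detected in the fit. The widest gaps were in Cdca7, Tfdp1 and Ccne1. Ccne1, cyclin E1, had 0, 0 and 145 TPM in low cells, against 0, 136 and 706 TPM in S cells (-4.75), and it was detected in 2 low cells and 14 S cells. For Ccne1 the pair was -2.94 and -5.81. Ccne2, cyclin E2, differed by -3.01 (-2.02 and -3.59), with 1 low and 11 S cells. Their partner Cdk2 differed by -2.01, but by -0.52 with genes detected in the fit, -0.76 with the score regressed on genes detected and -0.81 in the shared range of genes detected. In title numbers 2 to 6 and 7 to 11 it was -0.32 and -2.99.

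Cdca7 had 0, 0.911 and 131 TPM in low cells, against 37.3, 166 and 689 TPM in S cells (-5.36). Tfdp1 had 0, 0.854 and 180 TPM in low cells, against 0.285, 261 and 739 TPM in S cells (-4.85). E2f1, an activating E2F factor, reached 1 TPM in 0 of 19 low cells (0 to 17.6%; 3 counts would allow up to 15.8%) and in 9 S cells (47.4%, 24.4 to 71.1%). The repressive factor E2f4 also differed, by -3.86, being detected in 10 low and 19 S cells. The pairs were -1.85 and -3.77 for E2f1, and -2.72 and -4.52 for E2f4. Among the other E2F genes listed only E2f5 passed the filter. It was within 1 (-0.91), and so was the other DP gene, Tfdp2 (0.08). E2f3 (-0.50) was detected in 2 low and 5 S cells, E2f8 (-0.41) in 1 low and 3 S cells. E2f2 (-0.31) was detected in 1 low and 2 S cells. These genes below the filter were in too few cells to compare.

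The kinases that pair with D-type cyclins, Cdk4 (-0.37) and Cdk6 (-0.15), and cyclin D3, Ccnd3 (0.26), were within 1. These depended on the cells and the fit: Cdk6 was -1.75 and 0.77 in the sets of title numbers, and Ccnd3 was 1.35 with genes detected in the fit. Cyclin D2, Ccnd2, had 0.732, 113 and 420 TPM in low cells, against 96.7, 232 and 425 TPM in S cells (-1.75), and cyclin D1 was seen in 0 low cells and 1 S cell. Myc, the growth factor-responsive transcription factor, had 1.01, 210 and 1759 TPM in low cells, against 105, 406 and 2104 TPM in S cells. Its difference of -2.83 was -1.63 with genes detected in the fit, and -1.65 and -3.53 by title numbers. The retinoblastoma gene Rb1 was seen in 2 low and 2 S cells, too few to compare. Of the same family, Rbl1 differed by -1.16 (4 low and 8 S cells) and Rbl2 by -1.05 (2 low and 6 S cells). With genes detected in the fit they were at 0.13 and -1.03, and Rbl2 was -0.59 and -1.32 by title numbers.

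Cell cycle inhibitors and genes tied to quiescence were mostly within 1, with a median above that of all genes. Of 22 planned genes 21 were in the table and 12 passed the filter. Of these 12, 3 were higher by at least 1, 1 was lower and 8 lay in between. Over all genes 7.96% were higher and 27.9% lower. The list's median was 0.51, against -0.36 over all genes. With genes detected in the fit it was 0.89, against 0.03 over all genes. Ccng2, cyclin G2, known for its high level in arrested cells, had 0, 55.8 and 392 TPM in low cells, against 0, 0.396 and 194 TPM in S cells (3.12). It was detected in 11 of 19 low cells (57.9%, 33.5 to 79.7%) and 3 of 19 S cells (15.8%, 3.38 to 39.6%). The difference was 5.55 in title numbers 2 to 6 and 1.71 in 7 to 11.

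Btg1, an antiproliferative gene of the BTG/Tob family, had 0.130, 65.8 and 332 TPM in low cells, against 0, 14.5 and 65.1 TPM in S cells (2.26). That gap was uneven, at 0.47 in title numbers 2 to 6 and 3.31 in 7 to 11. Cdkn1b, which encodes p27, had 0, 0.544 and 54.99 TPM in low cells, against 0, 0 and 23.02 TPM in S cells (1.27). It was detected in 8 low and 3 S cells, and in 15 G2/M cells. The difference in Cdkn1b was 2.30 in title numbers 2 to 6 and 0.67 in 7 to 11, and 0.49 with the regressed score.

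Cdkn1a, which encodes p21, lay the other way, at 0, 49.3 and 1218 TPM in low cells, against 0.360, 110 and 441 TPM in S cells (-1.42). That direction did not hold in the 7 low and 15 S cells within the shared range of genes detected, where the difference was 0.11, and it was -0.31 with genes detected in the fit. By title numbers it was -2.12 and -1.01. Cdkn2d, which encodes p19, differed by 0.49, and by 1.76 with genes detected in the fit. The genes Cdkn2a, Cdkn2b and Cdkn2c were under 1 TPM in all low and S cells. Of 20 planned p53 targets, 9 passed the filter, 1 was higher and 2 lower, with a median of 0.10.

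The genes with the largest positive differences came from several pathways. Mad2l1bp, which encodes the p31comet protein that silences the spindle checkpoint, headed the list and lies on chromosome 17, 46147385 to 46153551. It had 0, 237 and 640 TPM in low cells, against 0, 0 and 193 TPM in S cells (4.35). Mean log2(TPM + 1) was 6.40 ± 3.17 in low cells and 2.05 ± 3.09 in S cells (SD over cells, n = 19 each). It was detected in 17 of 19 low cells (89.5%, 66.9 to 98.7%) and 6 of 19 S cells (31.6%, 12.6 to 56.6%). The difference was 4.66 with genes detected in the fit, and 3.30 and 4.96 in title numbers 2 to 6 and 7 to 11.

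Snx20, a sorting nexin, had 0, 176 and 524 TPM in low cells, against 0, 0 and 333 TPM in S cells (4.18), with 15 low and 7 S cells. Abtb1, a protein with ankyrin repeats and BTB domains, had 0, 172 and 754 TPM in low cells, against 0, 0.266 and 309 TPM in S cells (3.85), with 15 low and 6 S cells. In both genes a few S cells reached the level of low cells. Hbp1, a transcriptional repressor known to slow entry into S phase, had 0.233, 226 and 1350 TPM in low cells, against 0, 19.8 and 363 TPM in S cells (3.22). Hbp1 overlaps Cog5. With genes detected in the fit, Snx20 differed by 5.23, Abtb1 by 3.28 and Hbp1 by 4.01. Foxn3, a forkhead repressor known for checkpoint suppression, was detected in 12 low and 4 S cells (2.81).

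The other genes among the 15 largest positive differences include genes of metabolism, membrane traffic and protein turnover. Among them are Fbxo9 (3.17), an F-box subunit of ubiquitin ligases, and Bckdha (3.06), a subunit of the enzyme that breaks down branched-chain keto acids. Nudt7 (2.94) is a peroxisomal hydrolase of coenzyme A, and Acot9 (2.74) a mitochondrial acyl-CoA thioesterase. Vamp7 (2.68) is a SNARE protein of late endosomes and lysosomes. Cyb561d2 (3.11), which overlaps Nprl2, Zscan21 (2.68) and Pef1 (2.67) complete the list with Ccng2 and Sqstm1. Several of these were uneven across title numbers, Vamp7 with 5.53 and 1.03, Nudt7 with 4.90 and 1.80, Acot9 with 1.21 and 3.63, and Pef1 with 1.14 and 3.57. Cyb561d2 had 4.17 and 2.49, Zscan21 3.71 and 2.08, and Bckdha 2.29 and 3.51.

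Sqstm1 is the only one of the 15 that was detected in every low and S cell. It lies on chromosome 11, 50200152 to 50210820, and its promoter stands above. It had 179, 517 and 1809 TPM in low cells, against 1.82, 164 and 628 TPM in S cells (2.70). Mean log2(TPM + 1) was 8.89 ± 0.98 in low cells and 6.19 ± 2.91 in S cells (SD over n = 19 cells). All low cells lay at 179 TPM or more, while 5 S cells were below 10 TPM. The gap was 3.05 with genes detected in the fit, and 3.43 and 2.27 by title numbers. It was above 1 in all 12 other settings computed, but those that change only the filter repeat the main value.

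**Figure D3:**
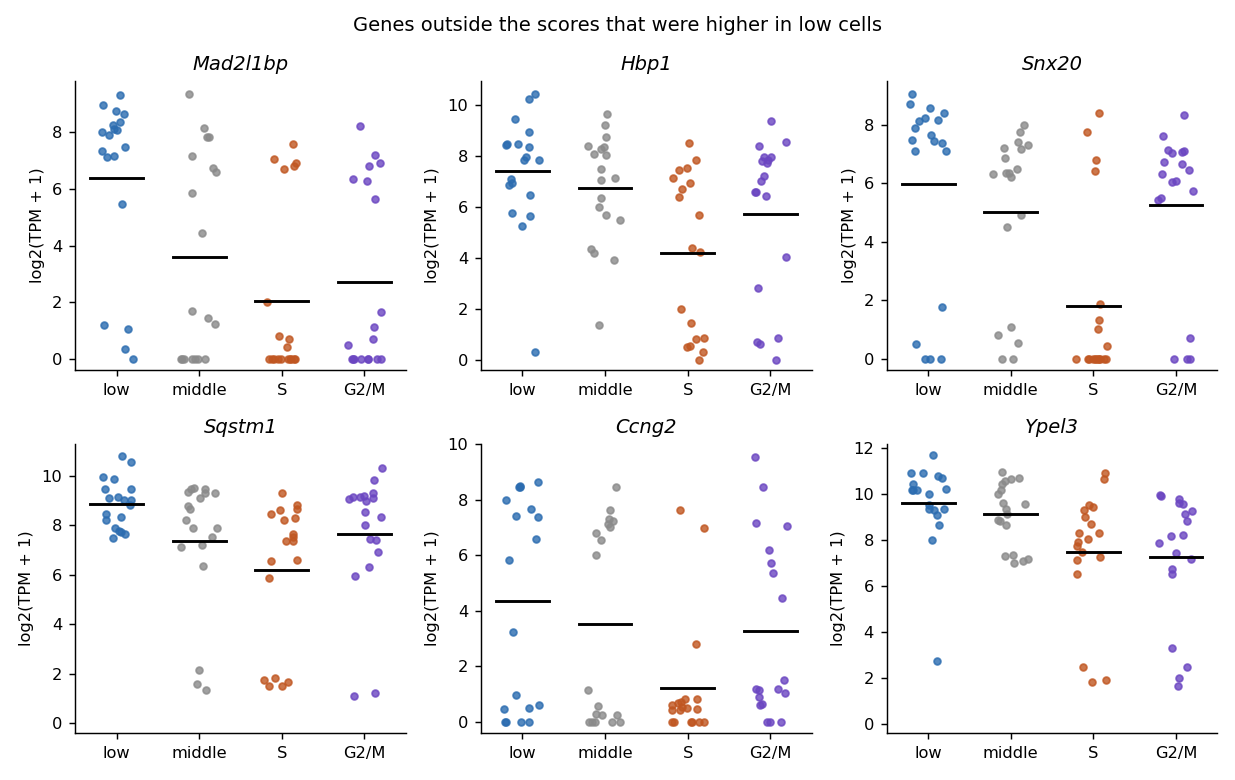
log2(TPM + 1) of 6 genes outside the scores in each cell of the low, middle, S and G2/M groups (n = 19 each); bars are means. Mad2l1bp, Snx20 and Ccng2 are near 0 in most S cells, Sqstm1 is above 7 in every low cell, and Hbp1 and Ypel3 show the overlap of the 2 groups.

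Other genes of autophagy were looked up after their values were seen. Map1lc3b, which encodes the autophagosome protein LC3B, had 404, 1378 and 2382 TPM in low cells, against 305, 592 and 1489 TPM in S cells (1.01). Bnip3l, a receptor for the removal of mitochondria, had 65.7, 258 and 663 TPM in low cells, against 49.8, 125 and 394 TPM in S cells (1.02). Both were in every cell of both groups and their ranges overlap widely. With genes detected in the fit each difference was 0.87. By title numbers it was 1.59 and 0.66 for Map1lc3b, and 0.83 and 1.13 for Bnip3l. Ypel3, a growth-suppressing gene of the Yippee-like family, had 5.53, 1133 and 3261 TPM in low cells, against 2.54, 263 and 1907 TPM in S cells (2.09). The list of 22 lysosome and autophagy genes had members past 1 in both directions. Of the 21 that passed the filter, 3 were higher by at least 1, namely Sqstm1, Ctsd (1.06) and Map1lc3b. Another 5 were lower, among them Ctss (-1.77), and the list's median was -0.02, against -0.36 over all genes. With genes detected in the fit it was 0.58, against 0.03 over all genes. It was 0.80 with the regressed score and -0.30 with median-ratio scaling, so its direction depended on the setting. Ctsd was 1.90 and 0.57 by title numbers, and Ctss -1.01 and -2.22.

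Genes that build ribosomes were lower in low cells, while the ribosomal proteins themselves were close to the median of all genes. Of 27 ribosome biogenesis genes, 25 passed the filter, of which 22 were lower by at least 1 and 0 higher. The list's median was -2.44, and -1.39 with genes detected in the fit. Gnl3, nucleostemin, had 0.283, 60.3 and 563 TPM in low cells, against 15.1, 351 and 847 TPM in S cells (-3.61). Dkc1, the pseudouridine synthase dyskerin, had 0, 89.7 and 256 TPM in low cells, against 1.88, 250 and 824 TPM in S cells (-3.52). Rrp9 (-4.08) and Bop1 (-4.05), which act in processing of ribosomal RNA, were each detected in 4 low cells, against 13 S cells for Rrp9 and 15 for Bop1. By title numbers Rrp9 had -5.63 and -3.18, and Dkc1 -4.51 and -2.94. Of 83 ribosomal protein genes, 3 were lower by at least 1, and the list's median was -0.26.

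Chaperones were between these. Of 20, 18 passed the filter, of which 7 were lower by at least 1 and 0 higher, against 27.9% lower over all genes. The list's median was -0.84. Hspd1, the mitochondrial chaperonin, had 1.15, 99.3 and 580 TPM in low cells, against 1.62, 447 and 911 TPM in S cells (-2.68). Its partner Hspe1 (-2.44, with -3.31 and -1.94 by title numbers) and Tcp1 (-2.48), a subunit of the cytosolic chaperonin, were lower too. The 39 proteasome genes (7 lower, 0 higher, median -0.36), 82 respiratory chain genes (4 lower, 0 higher, -0.21) and 16 glycolysis genes (0 lower, 2 higher, 0.05) lay near the median of all genes.

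Of 16 planned cholesterol synthesis genes, 15 were in the table and passed the filter. Of these, 8 were lower by at least 1, against 27.9% of all genes, with a median of -1.02. The 2 sets of title numbers differed here, at -0.09 in 2 to 6 and -1.68 in 7 to 11. Fdft1, squalene synthase, showed this most plainly, at 0.61 in 2 to 6 and -4.89 in 7 to 11.

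**Figure D4:**
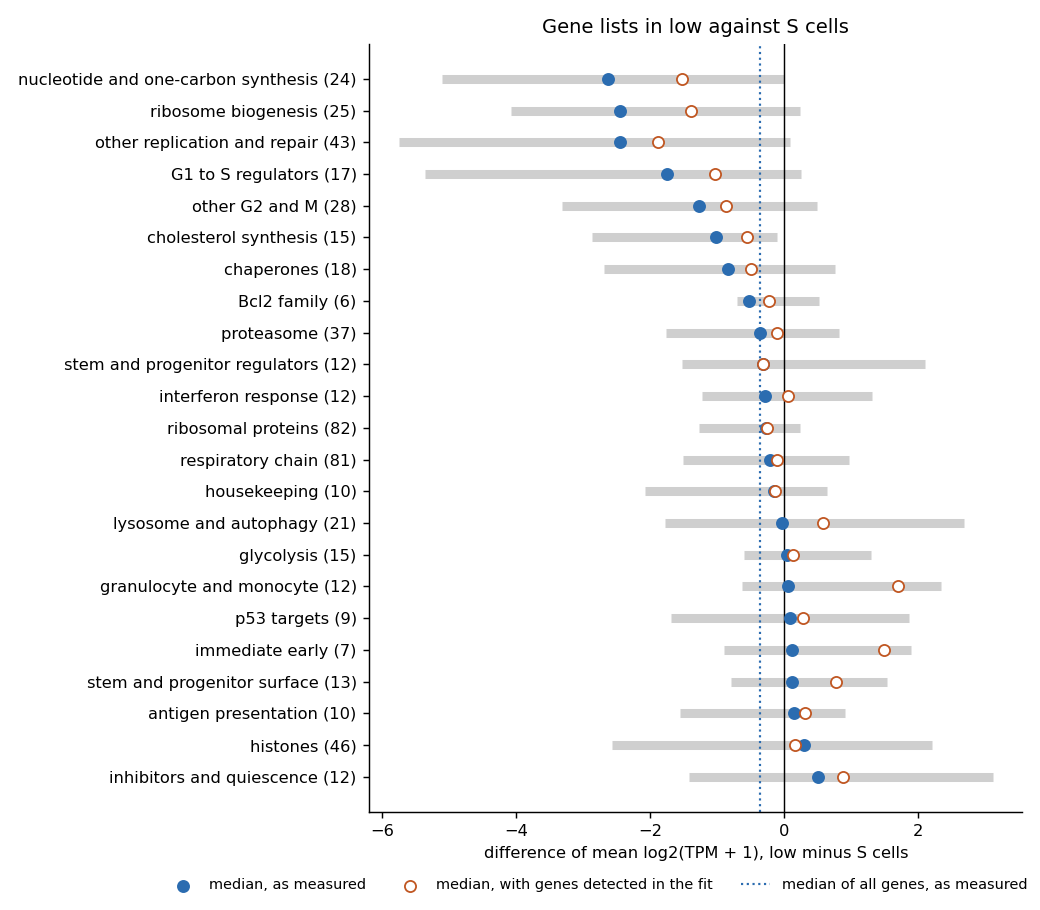
Gene lists in rows, with the number of members that passed the filter in brackets. Filled points are the median difference in mean log2(TPM + 1), low minus S cells, grey bars run from the lowest to the highest member, open points are the median with genes detected in the fit, and the dotted line is the median of all genes (-0.36).

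Genes of G2 and M phase outside the score were lower in low cells. Cells with a high G2/M score had been set aside from both groups, but its median was still 0.88 in low cells and 1.84 in S cells. Across the 57 cells the 2 scores had a Spearman rho of 0.29. Of 42 listed, 28 passed the filter, of which 17 were lower by at least 1 and 0 higher, against 27.9% lower over all genes. The list's median was -1.26, and -0.87 with genes detected in the fit. Tuba1b, an alpha tubulin with near-identical copies in the genome, had 6.43, 166 and 590 TPM in low cells, against 299, 910 and 1684 TPM in S cells (-2.96). Stmn1, stathmin, which destabilises microtubules, had 6.63, 814 and 2932 TPM in low cells, against 910, 2190 and 4717 TPM in S cells (-2.18). Mad2l1, the checkpoint protein that p31comet binds, differed by -3.32 and was detected in 5 low and 14 S cells. The pairs by title numbers were -5.05 and -2.31 for Mad2l1, and -1.34 and -2.66 for Stmn1. Spc24, a kinetochore subunit, was detected in 0 low and 8 S cells (-2.50).

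Histone genes did not follow. Of 75 listed, 46 passed the filter, with 3 higher by at least 1, 1 lower and a median of 0.30. The 3 were Hist3h2a (2.22), Hist1h2bc (2.22) and Hist1h2bg (1.78), and the lower one was H2afx (-2.57), the variant phosphorylated at DNA breaks. By title numbers Hist1h2bc had 1.54 and 2.61, with 0.91 in numbers 2 to 9, and Hist1h2bg 1.24 and 2.104, while H2afx was -0.97 with the regressed score. Messages of replicative histones mostly lack a poly(A) tail and these libraries start from polyadenylated RNA. Histone genes also have near-identical copies, so their values are uncertain.

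Across the 57 ranked cells the genes that followed the S score most closely were Ranbp1 (rho 0.76), Tuba1b (0.74), Ung (0.70), Dctpp1 (0.69), Uhrf1 (0.69), Tipin (0.67), Stmn1 (0.67), Cdca7 (0.67), Dtymk (0.65) and Ran (0.64). Ranbp1 and Ran drive transport through the nuclear pore and spindle assembly, and Dctpp1 and Dtymk clean up and make nucleotides for DNA. Ranbp1 had 8.56, 559 and 1470 TPM in low cells, against 1025, 2116 and 4230 TPM in S cells, and its pair by title numbers was -1.69 and -2.58. The smaller difference of Ran, -1.18, was -0.98 with genes detected in the fit. Uhrf1, which brings maintenance methylation to new DNA, was detected in 1 low and 17 S cells. These cells chose the groups. In the 19 G2/M cells, which the ranking did not use, rho with the S score was 0.88 for Dtymk, 0.84 for Tipin, 0.70 for Ranbp1, 0.66 for Stmn1 and 0.63 for Dctpp1 and Ran. It was 0.53 for Uhrf1, 0.48 for Cdca7, 0.47 for Ung and 0.42 for Tuba1b. Points share 1 table and, in part, the number of genes detected per cell.

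At the other end, chosen after values were seen, stood Map1lc3b (-0.58), Paip2 (-0.54), Bnip3l (-0.51), Ypel3 (-0.51) and Ftl1 (-0.50). Paip2 is a brake on translation and Ftl1 the ferritin light chain. In the 19 G2/M cells their rho was -0.47 for Map1lc3b, -0.26 for Paip2, -0.01 for Bnip3l, -0.09 for Ypel3 and -0.42 for Ftl1, so those of Bnip3l and Ypel3 were near 0.

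The 19 G2/M cells can be set beside low cells for the same genes; both comparisons use the same S cells, so they are not independent. Of the 84 members of the replication, nucleotide and G1 to S lists that passed the filter, 71 were lower in low than in S cells. Of these 84, 31 were lower in G2/M than in S cells by at least 1, where the background was 8.84% of all genes, and 7 were higher, where it was 19.5%. S cells were picked for high RNA of S phase genes, so lower values of such genes in any other group were partly set by the choice. These counts therefore describe the lists and test nothing. Ccne1 differed by -4.04 between G2/M and S cells and by -4.75 between low and S cells. For Ung the values were -4.01 and -5.66, and for Gart -2.83 and -5.11. Tipin (-0.59 and -5.75), Rfc5 (0.75 and -5.65) and Asf1b (1.67 and -4.93) had levels in G2/M cells near or above those in S cells. The S score had 1.52, 5.89 and 8.57 as lowest, median and highest value in G2/M cells, against 5.39, 6.48 and 8.72 in S cells. Means of G2/M cells thus mix cells with low and high S scores, and are not levels of a single phase. Median TPM of Asf1b was 335 in G2/M cells, 0.674 in low cells and 292 in S cells.

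**Figure D5:**
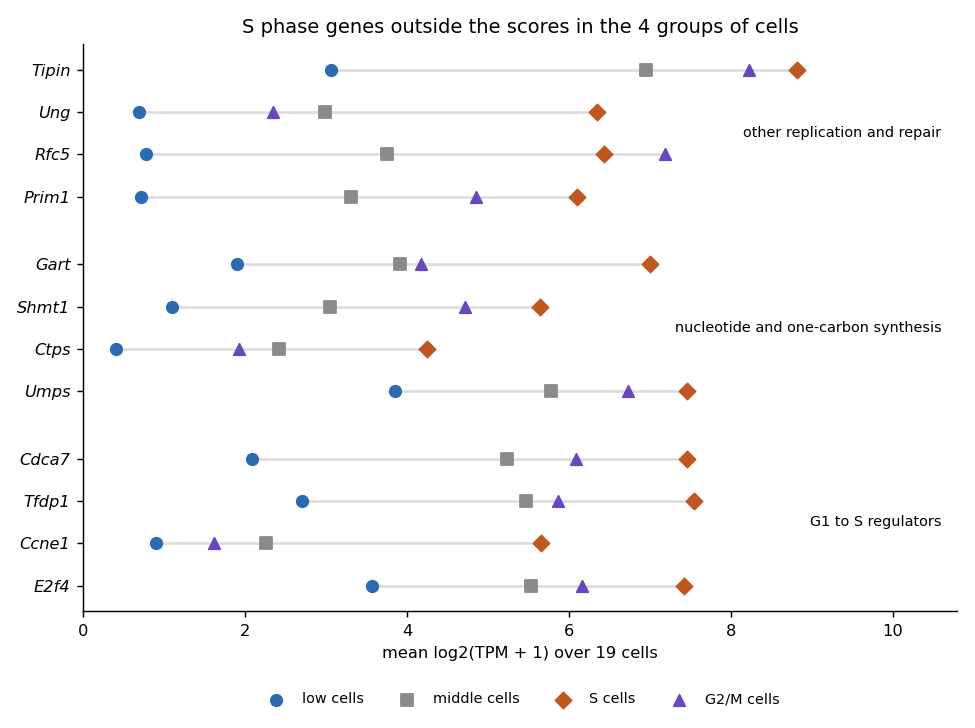
Mean log2(TPM + 1) over the 19 cells of each group for the 4 members with the largest difference in each of 3 lists. Low cells are lowest for all 12 genes; Rfc5 is highest in G2/M cells, while Ung and Ccne1 are high in S cells and low in G2/M cells.

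Middle cells lay between the other groups for 1305 of the 1828 lower genes and 340 of the 521 higher genes, by mean log2(TPM + 1). Prim1, for example, had a median of 0 TPM in low cells, 0.464 TPM in middle cells and 183 TPM in S cells. Middle cells were cut between the other 2 groups on the same score, and the genes were called by the difference between those groups. A middle mean in between was thus largely set by the choice, and these counts test nothing.

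The introduced factors differed by less than 1 between low and S cells when all 38 cells were used with no adjustment. Runx1 had 0.304, 126 and 324 TPM in low cells, against 0.446, 101 and 195 TPM in S cells (0.32), and was detected in 18 cells of each group. Hoxa9 was detected in 5 low and 3 S cells (0.36), and Hoxa10 in 8 low and 6 S cells (0.47). The direction was not fixed. With the regressed score Runx1 was at -0.06 and Hoxa10 at -0.37, and with values under 10 TPM set to 0 Hoxa9 was at -0.22 and Hoxa10 at -0.07, whereas Hoxa10 was at 1.31 in title numbers 2 to 6. Gene-level TPM does not separate RNA of introduced copies from that of the chromosomal genes.

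Of 17 regulators of stem and progenitor cells, 12 passed the filter. Of these, 1 was higher by at least 1 and 2 were lower, with a median of -0.30. The higher one was Lmo2, a LIM-domain partner of Tal1, which had 0, 215 and 1608 TPM in low cells, against 0, 27.5 and 659 TPM in S cells (2.11). Its pair by title numbers was 3.20 and 1.48. Gfi1b (-1.52), detected in only 1 low, 8 middle and 4 S cells, and Zfp36l2 (-1.10) were the lower ones. By title numbers Gfi1b had -2.01 and -1.23, and Zfp36l2 -0.74 and -1.31. With the regressed score they were at -0.43 and -0.99. Kit, the receptor for stem cell factor, differed by 1.07, but by 2.07 in title numbers 2 to 6 and 0.49 in 7 to 11, and by 0.64 with median-ratio scaling.

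Markers of mature lineages were looked up in both groups. Of the 22 planned granulocyte and monocyte genes 21 were in the table and 12 passed the filter, with 2 higher by at least 1 and a median of 0.07. Their summed TPM had its lowest, median and highest value at 626, 2433 and 9891 in low cells, against 619, 1652 and 4748 in S cells. Mpo, myeloperoxidase, had 0.333, 142 and 4053 TPM in low cells, against 0, 1.69 and 942 TPM in S cells (2.36), and Fcgr3, an Fc receptor, differed by 1.45. By title numbers Mpo had 3.69 and 1.58, and Fcgr3 2.65 and 0.74. The list's median was 2.08 in title numbers 2 to 6, -0.73 in 7 to 11 and 1.71 with genes detected in the fit, so its direction depended on the cells and the fit. S100a8, S100a9, Camp and Ltf, genes of mature neutrophils, were under 1 TPM in all low and S cells.

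The other lineage lists had few members past the filter. T lymphoid genes summed to 1.31, 53.6 and 9062 TPM in low cells, against 1.58, 332 and 2891 TPM in S cells, and Cd3e was under 1 TPM in every cell of both. Erythroid genes summed to 13.4, 3499 and 8794 TPM in low cells, against 5.33, 3427 and 6301 TPM in S cells, with Gata1 and Klf1 under 1 TPM in every low and S cell. The early and B lymphoid list had Ikzf1 higher (1.51, but 0.57 in title numbers 2 to 6 and 2.06 in 7 to 11) and Cd79b lower (-2.41), with Cd79b detected in 1 low and 8 S cells, and Cd79a was under 1 TPM throughout. Median sums of NK and innate lymphoid genes were 81.6 TPM in low cells and 248 TPM in S cells, and those of mast cell genes 150 and 253 TPM. For megakaryocyte genes they were 873 and 515 TPM, for endothelial genes 577 and 460 TPM, and for macrophage and dendritic genes 57.8 and 116 TPM. The part of these cells' lineage in the differences above was not tested.

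The 504 genes detected in all 76 cells give values that gaps in detection touch least. Of them 10 were higher in low cells by at least 1 and 28 lower, with a median of -0.06. Among the lower ones were Srm, spermidine synthase, with 1.59, 269 and 1510 TPM in low cells, against 582, 1214 and 2010 TPM in S cells (-3.19). Acat2, an acetyl-CoA acetyltransferase, had 1.34, 110 and 778 TPM in low cells, against 63.1, 449 and 1483 TPM in S cells (-3.24). Nop56, a core protein of small nucleolar particles, differed by -2.91, Cks1b, a cyclin-dependent kinase subunit, by -1.77, and Tubb5, a beta tubulin, by -1.55. Among the higher ones were Sqstm1, Ypel3, Rac1 (1.31), Gpi1 (1.05) and Ctsd. Acat2 had -2.35 and -3.75 by title numbers, Cks1b -2.26 and -1.48, Tubb5 -0.92 and -1.91, and Gpi1 0.69 and 1.26, while Rac1 was 0.95 with values under 10 TPM set to 0. These genes were taken after their values were seen.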

How the data were processed

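RNA of 76 single cells was used as 1 table of TPM that the authors deposited, with 15192 genes, in which each column sums to 1e+06, so sequencing depth cannot be read from it. The tools named in the submitters' processing notes are StringTie 1.3.4, SAMtools 0.1.19, HISAT2 2.1.0 and bcl2fastq, with mm10 as build; their order, the annotation and the strand setting were not given there.

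Groups were cut from the 2 scores. Genes at 1 TPM or more in at least 16 cells were compared by mean log2(TPM + 1), low minus S cells, with a pseudocount of 1. Shares carry exact Clopper-Pearson 95% intervals. No doublet caller was run, since libraries came from sorted single cells, and no test was possible within 1 sample. The difference computation was tested on simulated data. Python 3.11.15, pandas 2.3.3 and SciPy 1.17.1 were used.

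The members and lists were chosen with earlier results of these data known. Named by rule were the score genes, introduced factors, 15 largest differences each way, 10 highest rho, up to 4 members of each list, and any member of the G1 to S and inhibitor lists. Other genes named were chosen after their values were seen: Map1lc3b, Bnip3l, Ypel3, Paip2, Ftl1, Srm, Acat2, Nop56, Cks1b, Tubb5, Rac1 and list members given with few or 0 cells. Of the symbols, 92.3% were found in RefSeq GRCm38.p6. Alternatives were 9 planned settings and 3 chosen after seeing the data.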

Additional observations from a re-analysis of the deposited data

How the results depend on the processing

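Depth is unknown, so fewer detected genes in low cells limit every value; cells are not replicates, and no replicate could be left out. Genes higher in low cells numbered 521, but 787 with a pseudocount of 0.1 (median of all genes -0.57), 285 with the filter at 38 cells, 1053 with the S score regressed on genes detected, 1392 with genes detected in the fit, 1197 in title numbers 2 to 6, 10 among genes in all 76 cells and 1595 within the shared range of 3750 to 4609 genes detected. Genes lower in low cells numbered 1828, but 1067, 1028, 1217 and 28 with the stricter filter, the regressed score, genes detected in the fit and genes in all 76 cells. Fewer genes are tested with the stricter filter (3498) and in all 76 cells (504); the cause of the other shifts was not tested. Lower genes made up 49.4% of those past 1 with the regressed score, 46.6% with genes detected in the fit, 45.8% in the shared range and 62.6% in title numbers 2 to 6. The ribosome biogenesis median was -0.88 over genes in all 76 cells.

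Of 1490 recomputed differences of named genes past 1, 22 changed sign, and of 659 for named genes under 1, 95 did. These totals include the settings that change only which genes are kept: no filter, the stricter filter and genes in all 76 cells. There a gene's difference repeats the main value and could not change sign, so the totals overstate how often values held. Of 137 named genes past 1, 85 stayed past 1 the same way in all settings. The 137 include score genes, which set the groups, and genes named for having the largest differences. The 85 are thus a count and no measure of stability. Among genes past 1, sign changes with the regressed score were Aen 0.059, Uqcrfs1 0.024, Ndufv1 0.996, Hmgcs1 0.66, Nkg7 0.48 and Cd68 0.21. With genes detected in the fit they were Rbl1 0.13 and Cd68 0.17. In title numbers 2 to 6 they were Mdm2 1.22, Fdft1 0.61, Hmgcs1 0.15, Isg20 0.30 and Lat 0.96, and in 7 to 11 Slc2a1 -0.65 and H2-DMa 0.29. In the shared range they were Rbl1 0.66, Cdkn1a 0.11, Uqcrfs1 0.042, Ndufv1 1.58, Lss 0.033, Hmgcs1 0.26 and Cd68 0.35. Of 382 list medians, 28 moved by more than the spread of the members. Settings with the shared range, title numbers 2 to 9 or genes in all 76 cells were chosen after seeing the data. No paired analysis was possible because every cell belongs to 1 group with no shared replicate numbers.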
